A study of Rattus norvegicus with 6 samples.

Results

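Ceramide is built and consumed by a small set of enzymes, and 10 of their genes were followed in LPS-stimulated primary rat microglia. Serine palmitoyltransferase (Sptlc1, Sptlc2), ceramide synthases (Cers2, Cers5, Cers6) and dihydroceramide desaturase (Degs1) make ceramide. Sphingomyelin synthase (Sgms1) and glucosylceramide synthase (Ugcg) convert it into larger lipids, acid sphingomyelinase (Smpd1) releases it and acid ceramidase (Asah1) cleaves it. The genes were matched by name, all 10 were found among the 23139 genes of the count tables, and all 10 passed the filter on low counts. The study sequenced polyA-selected mRNA from microglia of Wistar rat cortex, prepared at postnatal day 1, shaken off mixed cultures and sorted with CD11b/c beads. All 6 libraries received 100 ng/mL lipopolysaccharide (LPS), a bacterial outer membrane component that activates microglia. The 3 libraries called LPS additionally received DMSO, the solvent of the drug, and the 3 called LPS/siponimod received 50 µM siponimod, a modulator of sphingosine-1-phosphate (S1P) receptors. Neither unstimulated cells nor cells given siponimod alone were analysed here. The paper says that sequencing followed the scheme of its other experiments, which lasted 1 or 3 days, but names no duration for it. Cultures were of neonatal origin, which limits them as a model of adult microglia.

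De novo synthesis starts in the endoplasmic reticulum, where serine and palmitoyl-CoA are condensed, and proceeds over dihydrosphingosine and dihydroceramide to ceramide. Ceramide then moves to the Golgi apparatus, where it receives either a phosphocholine head group, giving sphingomyelin, or a glucose, giving the root of the glycosphingolipids. In lysosomes the larger lipids are taken apart to ceramide and sphingosine, and sphingosine can be phosphorylated to S1P, the natural ligand of the receptors that siponimod binds. Microglia use the lysosomal branch heavily, since they take up sphingolipid-rich myelin and cell debris.

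In the order of their replicate numbers, LPS totals were 39484979, 38301365 and 38080379 counts, while LPS/siponimod totals reached 46643859, 43336006 and 38857441. The smallest count of any of the 10 genes in any library was 468 (Sgms1, LPS replicate 2). Levels are given as CPM (counts scaled to library size with edgeR's TMM factors), without regard to gene length, so that the levels of single genes are compared between libraries. Where a gene is named as holding the most counts of a marker list, this ranks reads and not transcripts. A gene was called differentially expressed (DEG) when edgeR's quasi-likelihood test over 11977 genes gave an adjusted p up to 0.05 together with a change of 1.5-fold or more. A positive fold change (FC) means more transcript under LPS/siponimod, and 95% intervals come from the same fit.

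Before the results, the libraries were checked against cell type markers. All 11 microglial markers had counts in every library. Of them 3 (27.3%), Aif1, Itgam and Cx3cr1, were downregulated DEGs, beside 11.7% of all genes tested, and none was upregulated. A negative log2 FC was seen for 9 of the 11. The 2 others were Trem2 (log2 FC 0.85, edgeR adjusted p = 0.355) and Cd68 (0.002, 0.996). The summed level of all 11 was 9400, 7730 and 5190 CPM under LPS as against 3820, 4760 and 2650 CPM under LPS/siponimod, so that the conditions did not overlap. Cx3cr1, the fractalkine receptor, was low, with 69, 202 and 35 counts under LPS as against 3, 21 and 4 under LPS/siponimod, and it passed the filter on low counts only through the LPS libraries, so that its call is no support. Csf1r, the receptor of a microglial survival factor, held the most counts of this list (log2 FC -1.38, edgeR adjusted p = 0.106). In bulk libraries fewer cells of a type and less RNA per cell cannot be told apart, and the part of this shift in the results below was not tested. LPS replicate 3 stood apart in some markers of other cells. It held 515 counts of Olig1, 284 of Pdgfra, 162 of Map2 and 88 of Gfap, against at most 5 of each in LPS replicates 1 and 2. In LPS/siponimod replicate 3 these 4 genes had 17, 81, 115 and 1 counts. Other members of the same lists went the other way and were lowest of the LPS libraries in LPS replicate 3. Among them were Slc1a3 (574 counts, against 1500 and 775 in LPS replicates 1 and 2), Aldh1l1 (7 against 59 and 21), Mbp (84 against 149 and 161) and Cnp (4195 against 5357 and 5030).

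Of the other marker lists, no gene was at 0 in every library. Oligodendrocyte markers summed to 150, 136 and 149 CPM with LPS and to 49.2, 67.8 and 59.9 CPM with LPS/siponimod, most of it Cnp, while Mog, Mag and Mobp had at most 1 count in each library. Of this list 4 of 11 genes were tested, with 1 DEG up (Mbp) and 1 down (Cnp), or 50% beside 25.3% of all genes tested. Astrocyte markers summed to 48.4, 24.2 and 25.0 CPM with LPS and 29.3, 28.8 and 59.6 CPM with LPS/siponimod, led by Slc1a3. Of 4 tested, 1 was a DEG (Aldoc, lower), a share of 25% near the 25.3% of all genes tested. Neuronal markers summed to at most 16.9 CPM in any library, led by Tubb3, and 2 were tested. Snap25 had 0, 1 and 1 counts under LPS but 94, 153 and 81 under LPS/siponimod, and was tested only because of the latter. Fibroblast and vascular markers summed to 42.8, 109 and 23.4 CPM with LPS and 15.7, 24.9 and 15.2 CPM with LPS/siponimod, led by Pecam1, and 6 were tested. Dcn, with 3, 0 and 4 counts under LPS but 456, 49 and 178 under LPS/siponimod, was likewise tested only because of the latter. Among the 10 sphingolipid genes, the 4 that were DEGs with all libraries were also DEGs without LPS replicate 3 (edgeR adjusted p = 0.0212 for Cers6, 0.0295 for Degs1, 0.0186 for Ugcg and 0.015 for Sgms1). Without LPS/siponimod replicate 3 only Sgms1 of the 4 was called, and without both libraries numbered 3 Sgms1 and Degs1 were, while Cers6 (edgeR adjusted p = 0.0562) and Ugcg (0.0543) were not.

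Among the 10 genes, Sgms1 and Degs1 rose with LPS/siponimod, Ugcg and Cers6 fell, and Sptlc1, Sptlc2, Cers2, Cers5, Smpd1 and Asah1 did not pass the DEG thresholds. Thus 2 of 10 were upregulated, where 13.6% of all genes tested were, and 2 of 10 were downregulated, where 11.7% of all genes were. The median log2 FC of the 10 genes was -0.04, beside -0.02 over all genes, with 5 genes above and 5 below 0. Values of the LPS and LPS/siponimod libraries did not overlap for 6 of the 10 genes, beside 49.3% of all genes tested.

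**Figure D1:**
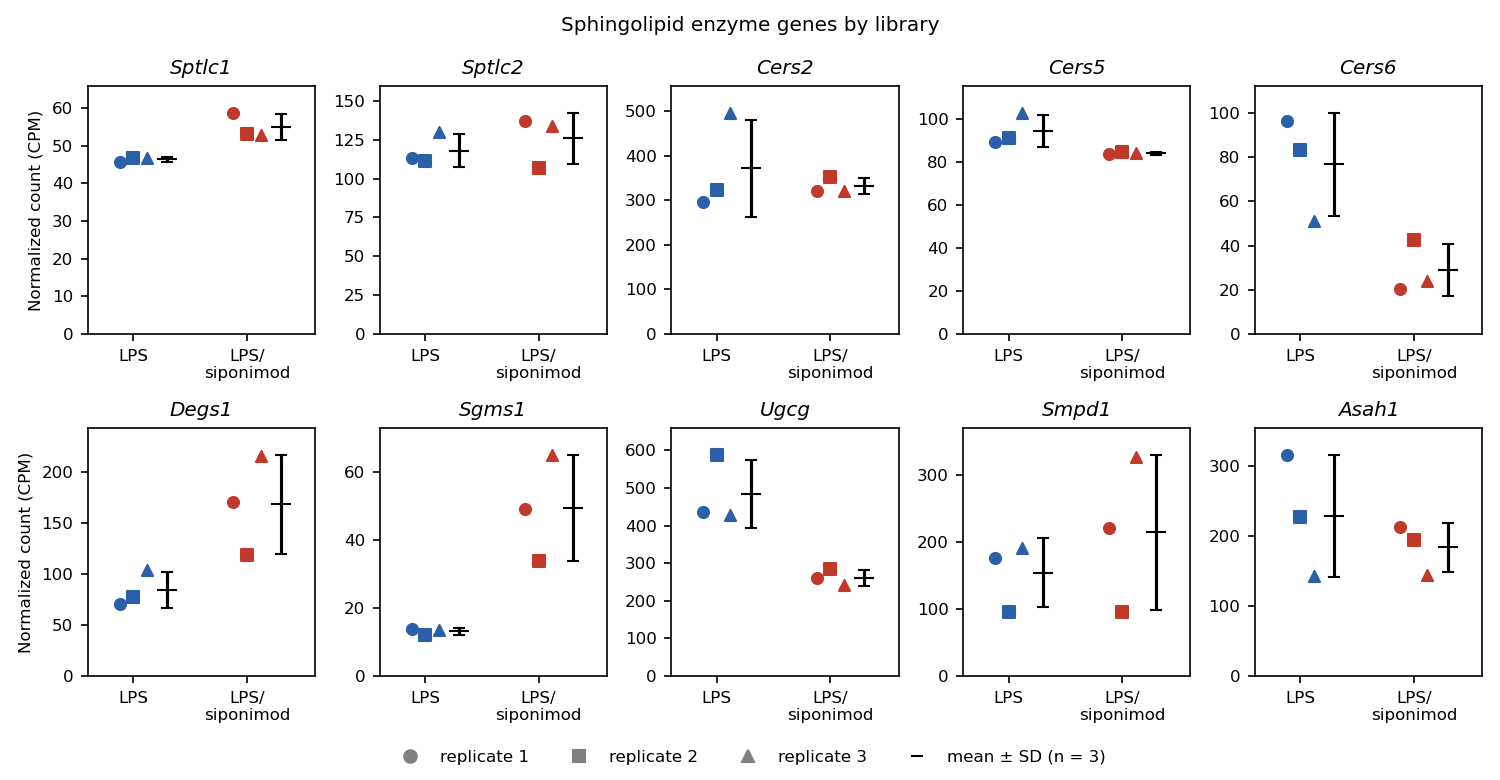
Normalized counts (CPM, linear axes from 0) of the 10 sphingolipid genes in the 3 LPS and 3 LPS/siponimod libraries, with symbols for the replicate number and bars for mean ± SD. Sgms1 sits between 12.1 and 13.9 CPM with LPS and between 33.9 and 65.1 CPM with LPS/siponimod, and Ugcg between 428 and 589 CPM with LPS and between 241 and 284 CPM with LPS/siponimod.

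Serine palmitoyltransferase, the enzyme that commits serine to the pathway, had no DEG among the 2 of its large subunit genes that were tested. Sptlc1 had 45.6, 46.8 and 46.8 CPM with LPS and 58.8, 53.0 and 52.8 CPM with LPS/siponimod. The LPS/siponimod libraries lay above all LPS libraries, but the difference was small and not a DEG (log2 FC 0.24, 95% interval 0.00 to 0.48, edgeR adjusted p = 0.113). Sptlc2, the catalytic partner of Sptlc1, had 113, 111 and 130 CPM with LPS and 137, 107 and 134 CPM with LPS/siponimod. Here the libraries overlapped, and the interval of the log2 FC ran from -0.26 to 0.45 (edgeR adjusted p = 0.657). The log2 ratio of Sptlc2 to Sptlc1 within a library was 1.34 ± 0.12 with LPS and 1.19 ± 0.17 with LPS/siponimod (SD, n = 3 each; two-sided exact permutation p = 0.4, where the smallest possible is 0.1). Within the 3 pairs it differed by -0.10, -0.23 and -0.13.

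Ceramide synthases attach the fatty acyl chain, and each prefers certain chain lengths. CERS2 uses very long chains, CERS5 and CERS6 mainly the palmitoyl chain. Cers6 fell 2.65-fold (log2 FC -1.41, standard error 0.36, 95% interval -2.27 to -0.54, edgeR adjusted p = 0.0328). It had 96.4, 83.1 and 51.0 CPM with LPS and 20.5, 42.6 and 23.9 CPM with LPS/siponimod. Every LPS library was above every LPS/siponimod library, although LPS replicate 3 and LPS/siponimod replicate 2 came close to each other. Within pairs of same-numbered libraries the log2 difference was -2.23, -0.96 and -1.09. The call was lost without LPS replicate 1 (adjusted p = 0.0946), LPS replicate 2 (0.112), LPS/siponimod replicate 1 (0.123) or LPS/siponimod replicate 3 (0.109), always by edgeR's quasi-likelihood test, with log2 FCs from -1.34 to -1.20. Without both libraries numbered 3 it was -1.51 (edgeR adjusted p = 0.0562).

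Cers5, which shares the chain preference of Cers6, had 89.3, 91.1 and 103 CPM with LPS and 83.6, 84.8 and 84.0 CPM with LPS/siponimod. The LPS/siponimod values lay closely together and just below the lowest LPS value, and the interval of the log2 FC was -0.43 to 0.10 (edgeR adjusted p = 0.279). For Cers2 the values were 296, 323 and 497 CPM with LPS and 320, 353 and 322 CPM with LPS/siponimod. LPS replicate 3 was the highest of all libraries, and the sign of the Cers2 difference rested on it. With it the log2 FC was -0.17 (95% interval -0.71 to 0.38, edgeR adjusted p = 0.602) and without it 0.10 (adjusted p = 0.57). The log2 ratio of Cers6 to Cers2 was -1.62, -1.96 and -3.28 under LPS as against -3.96, -3.05 and -3.75 under LPS/siponimod. It was lower with LPS/siponimod in all 3 pairs, by -2.34, -1.09 and -0.47, while the values of the conditions overlapped. The mean difference was -1.30 (two-sided exact permutation p = 0.2, where 3 libraries against 3 cannot give less than 0.1).

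Degs1, whose product inserts the double bond that turns dihydroceramide into ceramide, rose 2-fold. It had 70.2, 77.6 and 104 CPM with LPS and 170, 118 and 215 CPM with LPS/siponimod. The conditions did not overlap, and the spread was wider with LPS/siponimod (168 ± 48.6 CPM) than with LPS (83.9 ± 17.7 CPM; SD, n = 3 each). The log2 FC was 1.00 (standard error 0.26, 95% interval 0.36 to 1.64, edgeR adjusted p = 0.0359), and 1.27, 0.61 and 1.05 within the 3 pairs. As for Cers6, the call was lost without LPS replicate 1 (log2 FC 0.91, adjusted p = 0.0984), LPS replicate 2 (0.97, 0.126), LPS/siponimod replicate 1 (0.98, 0.118) or LPS/siponimod replicate 3 (0.78, 0.103), all by the quasi-likelihood test.

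Of the 10 genes, Sgms1 had the smallest p. Its product transfers phosphocholine to ceramide in the Golgi apparatus. Sgms1 had 13.9, 12.1 and 13.4 CPM with LPS and 49.2, 33.9 and 65.1 CPM with LPS/siponimod. The LPS libraries lay closely together, and the lowest LPS/siponimod library was far above them. Sgms1 rose 3.76-fold (log2 FC 1.91, standard error 0.25, 95% interval 1.31 to 2.51, edgeR adjusted p = 0.00733) and ranked 325 of 11977 genes by p-value. It was a DEG whichever of the 6 libraries was omitted, with log2 FCs from 1.66 to 2.11 and a largest adjusted p of 0.0439. The 3 tested genes whose log2 CPM followed Sgms1 most closely over the 6 libraries were Mtmr14 (Pearson r = 0.9987), Ctdp1 (0.9979) and Prpsap1 (0.997). All 3 were upregulated DEGs (log2 FC 0.62, 2.47 and 0.63), and with 6 libraries in 2 conditions correlations of this size describe the pattern only.

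Ugcg, whose product adds glucose to ceramide on the competing branch, went the other way. It had 436, 589 and 428 CPM with LPS and 260, 284 and 241 CPM with LPS/siponimod, without overlap. Ugcg fell 1.85-fold (log2 FC -0.89, standard error 0.18, 95% interval -1.32 to -0.46, edgeR adjusted p = 0.018), by -0.75, -1.05 and -0.83 within the 3 pairs. The call was lost without LPS replicate 2 (log2 FC -0.71, adjusted p = 0.0628), LPS/siponimod replicate 1 (-0.89, 0.086), LPS/siponimod replicate 3 (-0.83, 0.0745) or both libraries numbered 3 (-0.91, 0.0543), all by the quasi-likelihood test.

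Set against each other within a library, which removes the scaling, the ratio of Ugcg to Sgms1 was lower with LPS/siponimod in every pair. The log2 ratio of Ugcg to Sgms1 was 4.97, 5.59 and 4.99 under LPS as against 2.40, 3.06 and 1.89 under LPS/siponimod. The mean ratio was lower by 2.74 log2 units with LPS/siponimod (5.19 ± 0.35 against 2.45 ± 0.59, SD, n = 3 each). The two-sided exact permutation p was 0.1, the smallest that 3 libraries against 3 can give, and 0.3 after adjustment over the 3 ratios computed. Both genes were already separated between the conditions in opposite directions, so this p was fixed in advance and adds nothing to their calls.

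**Figure D2:**
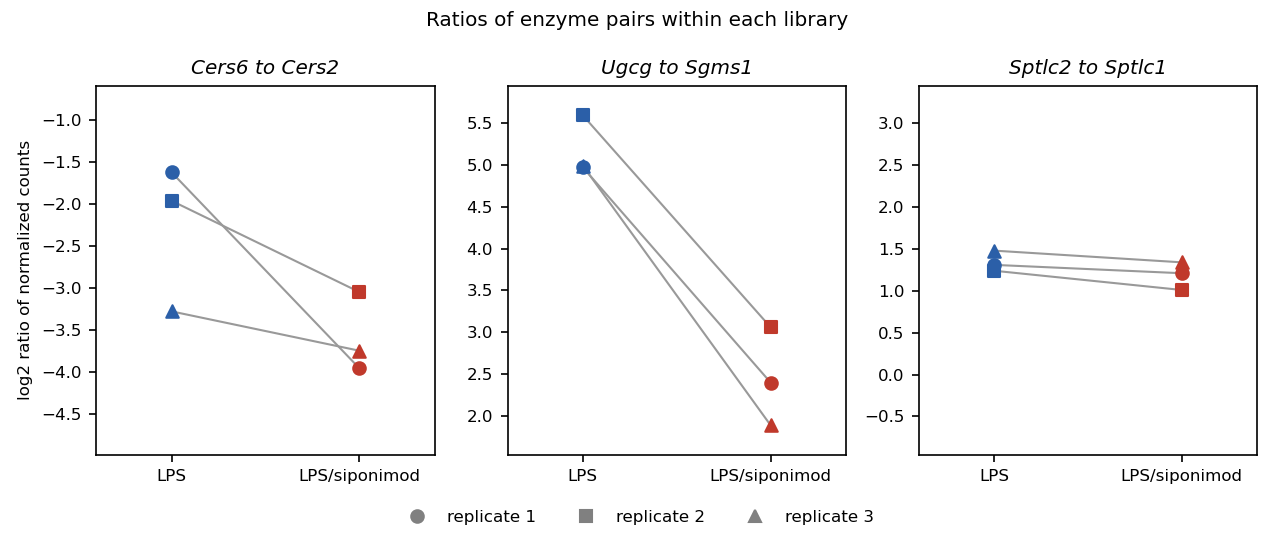
Log2 ratios of the normalized counts of Cers6 to Cers2, Ugcg to Sgms1 and Sptlc2 to Sptlc1 in each library, with lines joining same-numbered LPS and LPS/siponimod libraries; all panels span the same number of log2 units. The ratio of Ugcg to Sgms1 lies between 4.97 and 5.59 with LPS and between 1.89 and 3.06 with LPS/siponimod, and that of Sptlc2 to Sptlc1 between 1.01 and 1.48 in all libraries.

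Promoters are shown for the called genes with an entry in the RefSeq table, Sgms1 and Degs1 on the rising and Cers6 on the falling side, so that their sequence can be read beside the values. Entries cover 250 bases before to 50 after the start site and were matched by symbol for 8 of the 10 genes, all except Ugcg and Asah1. They belong to the assembly GRCr8, whereas the counts were mapped to mRatBN7.2. Sgms1 lies at chr1:239672844-239673143 (minus strand), Degs1 at chr13:96485253-96485552 (minus strand) and Cers6 at chr3:74038611-74038910 (plus strand). Capitals mark matches to any of 3 motifs searched on both strands.
Sgms1: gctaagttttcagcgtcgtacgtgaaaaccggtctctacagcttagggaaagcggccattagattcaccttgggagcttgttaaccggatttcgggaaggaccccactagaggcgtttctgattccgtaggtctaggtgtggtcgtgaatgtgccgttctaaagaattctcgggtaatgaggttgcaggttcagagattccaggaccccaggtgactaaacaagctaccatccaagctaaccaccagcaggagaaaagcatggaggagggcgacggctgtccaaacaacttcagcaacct
Degs1: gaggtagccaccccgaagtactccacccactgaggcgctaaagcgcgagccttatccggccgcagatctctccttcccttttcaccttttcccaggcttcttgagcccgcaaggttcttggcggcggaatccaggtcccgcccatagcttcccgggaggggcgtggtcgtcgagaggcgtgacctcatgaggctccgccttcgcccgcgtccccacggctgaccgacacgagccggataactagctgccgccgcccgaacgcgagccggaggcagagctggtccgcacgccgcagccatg
Cers6: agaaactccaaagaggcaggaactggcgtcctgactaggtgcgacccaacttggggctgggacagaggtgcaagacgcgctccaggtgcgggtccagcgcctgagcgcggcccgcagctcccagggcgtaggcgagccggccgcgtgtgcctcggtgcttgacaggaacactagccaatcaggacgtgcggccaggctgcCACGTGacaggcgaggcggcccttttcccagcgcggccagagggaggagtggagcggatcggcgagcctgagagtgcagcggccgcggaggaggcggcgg
The motifs were CACGTG, the palindromic E-box, TGATGNAAT, the composite element that ATF4 binds with a C/EBP partner, and TGACGTCA, the cAMP response element, and they do not contain each other. The E-box occurred in 6.42% of 33469 promoters and, of the 8 genes, in Cers6, where it begins 50 bases before the start site. The composite element (1.09% of promoters) and the cAMP response element (1.83%) occurred in none of the 8. A match describes letters in this window, and the absence of one says nothing about a factor.

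The 2 genes of lysosomal enzymes, Smpd1 and Asah1, were not DEGs. Smpd1, which splits sphingomyelin into ceramide, had 176, 95 and 191 CPM with LPS and 220, 95.3 and 327 CPM with LPS/siponimod. In both conditions replicate 2 was the lowest and replicate 3 the highest. The log2 FC of 0.47 had an interval of -0.69 to 1.64 (edgeR adjusted p = 0.48), which includes a rise as large as that of Degs1. With single libraries left out it ranged from 0.04 (without LPS/siponimod replicate 3) to 0.82 (without LPS/siponimod replicate 2). Asah1, which releases sphingosine from ceramide, had 317, 228 and 143 CPM with LPS and 214, 194 and 145 CPM with LPS/siponimod, replicate 3 being the lowest in both. Its log2 FC was -0.32 (95% interval -1.07 to 0.44, edgeR adjusted p = 0.47), and without LPS replicate 1 it was 0.00 (adjusted p = 0.997). The coefficient of variation in the LPS libraries was 33.6% for Smpd1 and 38% for Asah1, beside 30.5% for Cers6, 29.3% for Cers2 and values from 1.52% (Sptlc1) to 21.1% (Degs1) for the others. In the LPS/siponimod libraries it was 54.2% for Smpd1 and 19.3% for Asah1, beside 41% for Cers6, 31.6% for Sgms1 and 28.9% for Degs1.

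The rest of the pathway was read from 7 lists with 66 further genes, of which 64 were found in the tables and 52 were tested. Of the 52, 12 were upregulated and 6 downregulated DEGs (34.6% together, beside 25.3% of all genes tested). Their median log2 FC was 0.19. Fa2h, Acer1 and Elovl6 are among the 12 and passed the filter on low counts only through the LPS/siponimod libraries, where they were high, so that their calls are no support. Among the 48 genes that reached the filter's minimum in every library, 9 were upregulated and 6 downregulated DEGs. With the replicate number as a block there were 13 and 8 of the 52, while the share of all genes called was also larger (34% beside 25.3%). Without LPS replicate 2 there were 6 and 0, without LPS/siponimod replicate 1 there were 4 and 0, without LPS/siponimod replicate 3 there were 7 and 0, and without LPS replicate 1 there were 10 and 3. Counts over all genes were lower as well in these 4 fits, down to 469 up and 182 down without LPS replicate 2.

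Around de novo synthesis and ceramide transport, 4 of 7 tested genes rose and 1 fell (71.4% together, beside 25.3% of all genes; median log2 FC 0.64). Kdsr, which encodes the reductase acting just after serine palmitoyltransferase, had 6.26, 4.93 and 4.89 CPM with LPS and 38.1, 25.3 and 43.9 CPM with LPS/siponimod. The conditions were widely separated, and Kdsr rose 6.68-fold (log2 FC 2.74, standard error 0.25, edgeR adjusted p = 0.00435). Cert1, whose product carries ceramide from the endoplasmic reticulum to the site of sphingomyelin synthesis, had 147, 145 and 119 CPM with LPS and 469, 311 and 341 CPM with LPS/siponimod (log2 FC 1.45, standard error 0.20, edgeR adjusted p = 0.00817). Kdsr and Cert1 were DEGs in all 6 fits that left out 1 library.

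The ORMDL proteins hold serine palmitoyltransferase in check, and their 3 genes did not move together. Ormdl1 rose from 6.44 ± 1.36 to 14.1 ± 0.72 CPM (mean ± SD of 3 libraries each; log2 FC 1.13, edgeR adjusted p = 0.0132), and its adjusted p was 0.0618 without LPS/siponimod replicate 1. Ormdl3 had a log2 FC of 0.64 (edgeR adjusted p = 0.03). Ormdl2 fell from 45.1 ± 1.96 to 30.1 ± 2.83 CPM (log2 FC -0.59, edgeR adjusted p = 0.0174), right at the fold threshold, so that with RLE normalization, DESeq2 or a filter at a mean of 1 CPM (log2 FC -0.58 in each) it was no longer called. Ormdl3 lost its call without LPS replicate 2 (adjusted p = 0.119), LPS replicate 3 (log2 FC 0.58, under the fold threshold), LPS/siponimod replicate 1 (0.121) or LPS/siponimod replicate 3 (0.0955), and Ormdl2 without any of the same 4 libraries, by its p (0.069 to 0.0774) or, without LPS replicate 3, by its fold (log2 FC -0.55), in edgeR's test throughout. Sptssa, a small subunit of the transferase, was not a DEG in the fit by condition alone (log2 FC -0.88, edgeR adjusted p = 0.0987). It was lower with LPS/siponimod in all 3 pairs, by -0.82, -0.85 and -0.97, which that fit does not use. Its value with the replicate block is not given here. Sptlc3, Cers1 and Cers3 had 0 counts in every library, which allows at most between 0.0646 and 0.0809 CPM per library, counting error only.

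In the precursor supply list 6 of 13 tested genes were upregulated and 1 was a downregulated DEG. Of the 10 that reached the filter's minimum in every library, which leaves out Fa2h, Elovl6 and Elovl4, 4 were upregulated and 1 downregulated (50% together, beside 25.3% of all genes). Psph, which encodes the last enzyme of serine synthesis, rose from 3.76 ± 0.728 to 15.6 ± 4.49 CPM (mean ± SD of 3 libraries each; log2 FC 2.05, edgeR adjusted p = 0.00779). The 2 upstream enzymes of this route, Psat1 (log2 FC 3.47, adjusted p = 0.0121) and Phgdh (2.96, 0.0247), were upregulated DEGs too. Without LPS replicate 3 their log2 FCs were 4.36 and 4.03. In LPS replicate 3 both had more counts than in the other LPS libraries (206 against 42 and 76 for Psat1, 231 against 45 and 65 for Phgdh). Psat1 lost its call without LPS replicate 2 (adjusted p = 0.0601) or LPS/siponimod replicate 1 (0.0502). Phgdh was called in 1 of the 6 fits with a library left out, the one without LPS replicate 3, and its adjusted p in the 5 others lay between 0.0519 and 0.0914.

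Among genes of acyl chains, Elovl6, which lengthens palmitoyl-CoA, had 8, 3 and 27 counts under LPS, as against 413, 266 and 389 under LPS/siponimod (log2 FC 4.57, and 5.77 without LPS replicate 3). Its call was lost without LPS/siponimod replicate 1. Acsl3, an acyl-CoA synthetase gene, rose from 11.5 ± 0.887 to 25.9 ± 2.53 CPM (log2 FC 1.17, edgeR adjusted p = 0.00657) and was a DEG in every fit that left out 1 library, as was Psph. Its relative Acsl5 fell from 256 ± 44.8 to 116 ± 29.8 CPM (mean ± SD of 3 libraries each; log2 FC -1.14, edgeR adjusted p = 0.0189). The Acsl5 call was lost without LPS replicate 2 (0.0743), LPS/siponimod replicate 1 (0.0912) or LPS/siponimod replicate 3 (0.0659). Fa2h, which hydroxylates the acyl chain, had 0 counts in all 3 LPS libraries and 18, 21 and 60 with LPS/siponimod, so that against a floor of 3 counts over the LPS group it was at least 28.2-fold higher. LPS/siponimod replicate 3, with 60 counts, weighed most in this bound. The Fa2h call was lost without LPS replicate 2 (edgeR adjusted p = 0.0637), LPS/siponimod replicate 1 (0.0706) or LPS/siponimod replicate 3 (0.0519).

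Other sphingomyelin genes gave 1 DEG up and 1 down of 7 tested (28.6%, near the 25.3% of all genes; median log2 FC 0.20). Both were neutral sphingomyelinases. Smpd2 rose from 12.2 ± 2.49 to 21.9 ± 2.86 CPM (mean ± SD of 3 libraries each; log2 FC 0.84, edgeR adjusted p = 0.0269), and Smpd3 fell from 174, 191 and 45 counts to 16, 47 and 13 (log2 FC -2.66, edgeR adjusted p = 0.0412). Both calls were lost without LPS replicate 1 or 2 or LPS/siponimod replicate 1 or 3, where the adjusted p lay between 0.0599 and 0.0948 for Smpd2 and between 0.113 and 0.157 for Smpd3. With no filter beyond 1 count the adjusted p of Smpd3 was 0.0551, and without LPS/siponimod replicate 2 its log2 FC was -3.45. Sgms2, the second sphingomyelin synthase gene, had a log2 FC of 0.26 (edgeR adjusted p = 0.483).

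Ceramide breakdown and transfer gave 1 DEG up and 1 down of 8 tested (25%, beside 25.3% of all genes), or 0 up and 1 down of 7 without Acer1. The alkaline ceramidase gene Acer1 had 0, 2 and 1 counts under LPS, as against 27, 12 and 24 under LPS/siponimod, a ratio of 17.9 with a counting interval of 5.86 to 89.2. Its fitted log2 FC was 4.02, and 4.88 without LPS replicate 2. The Acer1 call was lost without LPS replicate 1 (edgeR adjusted p = 0.054) or 2 (0.0737) or LPS/siponimod replicate 1 (0.108) or 3 (0.0659). Gltp, whose product moves glycolipids between membranes, fell from 52.7 ± 12.2 to 23.7 ± 7.45 CPM (mean ± SD of 3 libraries each; log2 FC -1.15, edgeR adjusted p = 0.0271). Without LPS replicate 1 or 2 or LPS/siponimod replicate 1 or 3, the adjusted p of Gltp was 0.0721 to 0.117.

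Of 9 genes listed for glycosphingolipid synthesis, 3 were tested, all downstream of Ugcg. All 3 had a negative log2 FC, as had 51.2% of all genes, and 1 was a downregulated DEG, as were 11.7% of all genes. B4galt6, which encodes a lactosylceramide synthase, fell from 245 ± 69.4 to 115 ± 41.9 CPM (mean ± SD of 3 libraries each; log2 FC -1.10, edgeR adjusted p = 0.0471). Its isoenzyme gene B4galt5 had 817, 1310 and 1610 CPM with LPS and 597, 829 and 548 CPM with LPS/siponimod (log2 FC -0.92, edgeR adjusted p = 0.0657). B4galt6 had the highest adjusted p of the 18 pathway DEGs, and its call was lost with no filter on low counts (0.0581) and without LPS replicate 1 (0.0745), 2 (0.107) or 3 (0.0791) or LPS/siponimod replicate 1 (0.157) or 3 (0.142). Of 11 genes that break glycosphingolipids down, 8 had a negative log2 FC, the median was -0.31, and 1 was a downregulated DEG (9.09%), again beside 51.2% and 11.7% of all genes. In the RefSeq annotation several of the named genes overlap a neighbour, and since the handling of strand is not stated their counts are uncertain to that extent. These were Cers2 (beside Setdb1), Ormdl1 (Pms1) and Acsl5 (Zdhhc6).

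For S1P itself, the lipid whose receptors siponimod targets, none of 3 tested turnover genes was a DEG. Sphk2, a sphingosine kinase gene, had a log2 FC of 0.35 (95% interval -0.01 to 0.70, edgeR adjusted p = 0.125), Sgpl1, which encodes the lyase that destroys S1P, 0.10 (-0.32 to 0.52, 0.681), and the phosphatase gene Sgpp1 -0.12 (-1.11 to 0.88, 0.849). Sphk1 was not tested, with 10, 3 and 4 counts under LPS as against 30, 7 and 89 under LPS/siponimod, and Sgpp2 had 1 count in all libraries together.

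**Figure D3:**
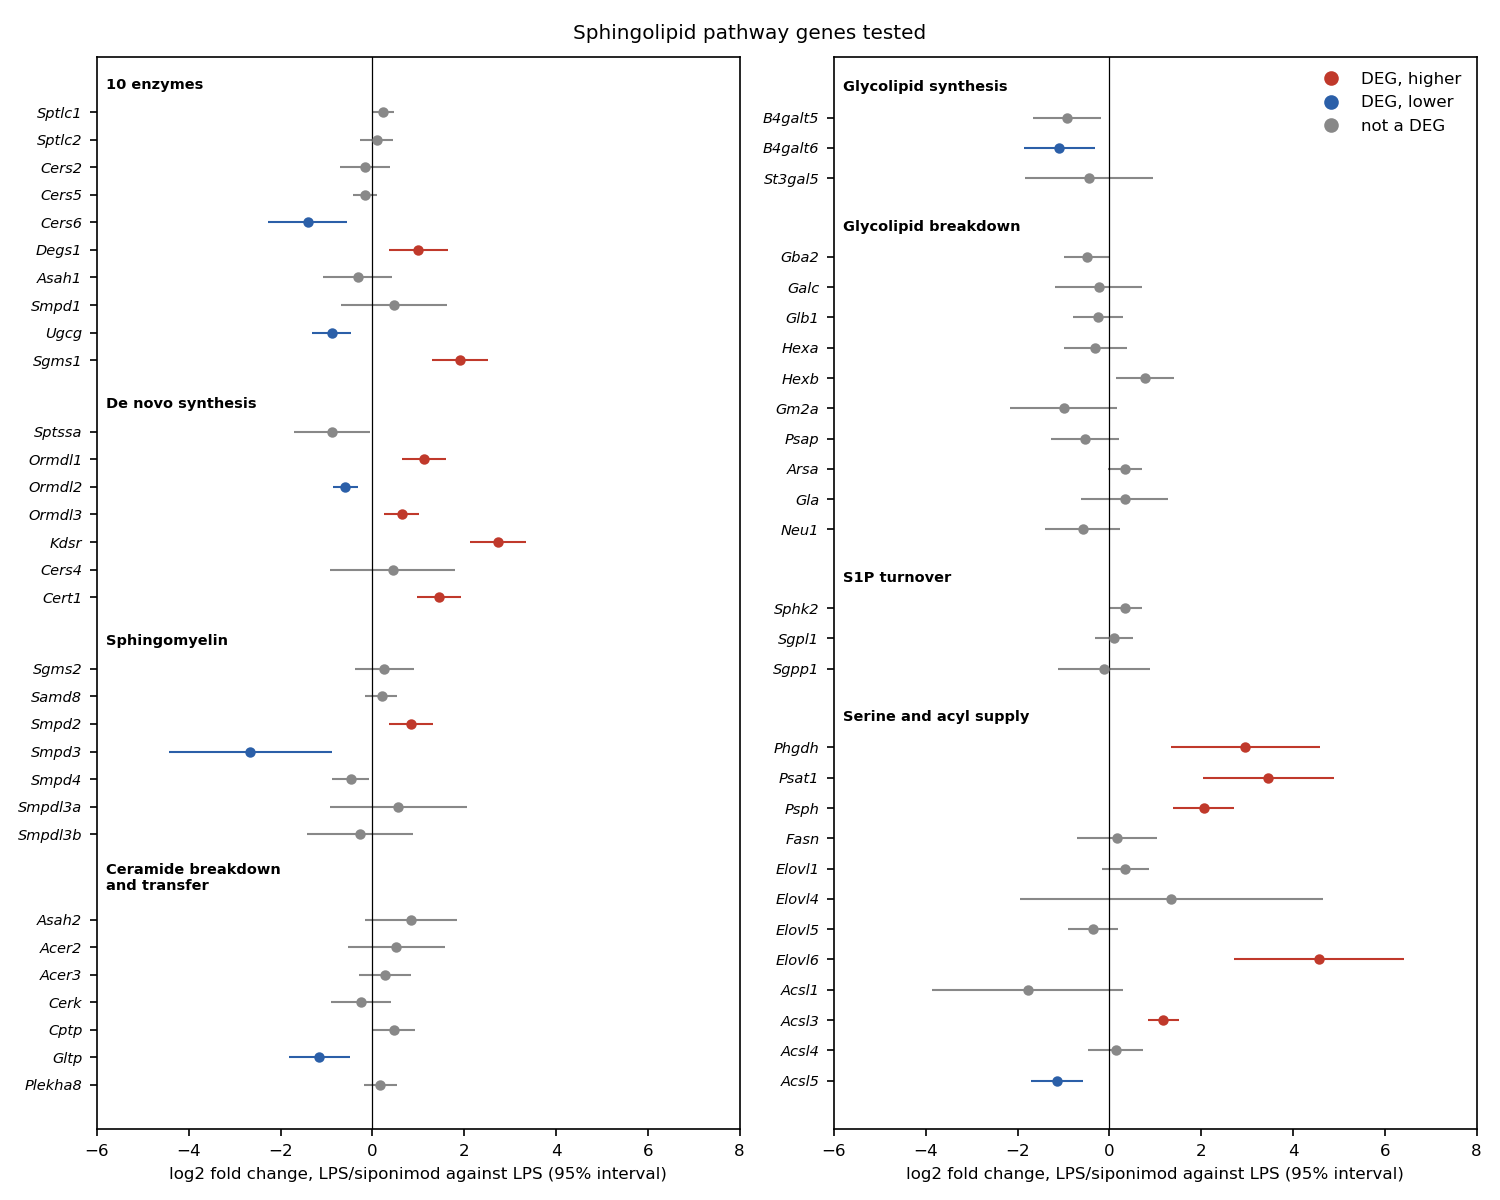
Log2 fold changes with 95% intervals (edgeR quasi-likelihood fit, LPS/siponimod against LPS) of most of the tested genes of the 10 enzymes and the 7 pathway lists, in red for upregulated and blue for downregulated DEGs and in grey for others; Fa2h and Acer1 are left out since their LPS counts were at or near 0. Kdsr (2.74), Sgms1 (1.91), Cert1 (1.45) and Degs1 (1.00) lie to the right, and Cers6 (-1.41) and Ugcg (-0.89) to the left.

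**Figure D4:**
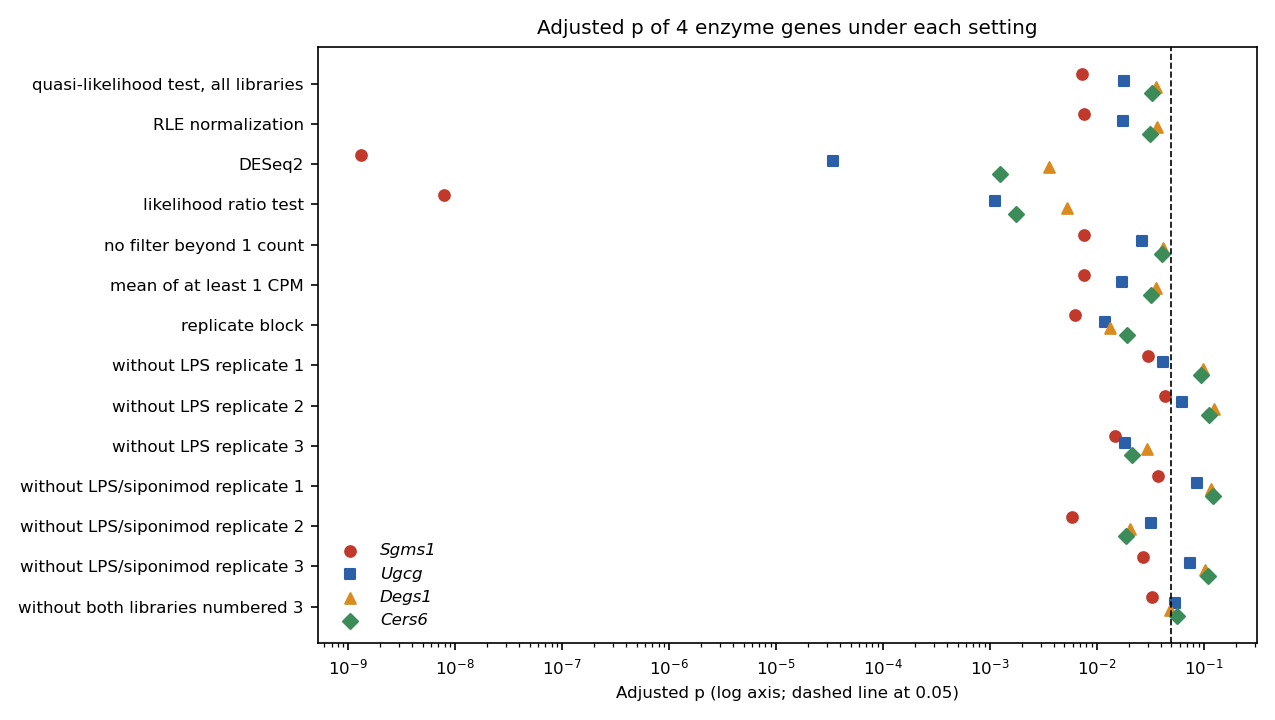
Adjusted p (log axis) of the 4 DEGs among the 10 enzymes with all libraries, under each other setting and with libraries left out, with a dashed line at 0.05. Sgms1 stays left of the line throughout, Degs1 and Cers6 cross it without LPS replicate 1 or 2 or LPS/siponimod replicate 1 or 3, Ugcg crosses it without LPS replicate 2 or LPS/siponimod replicate 1 or 3, and Cers6 and Ugcg cross it without both libraries numbered 3.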

How the data were processed

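The 6 libraries (3 biological replicates per condition, as the methods state) are described above. The authors demultiplexed and trimmed single-end reads (bcl2fastq v2.20.0.422), mapped them to mRatBN7.2 with the CLC Genomics Workbench and deposited total read counts per gene, without normalization; how reads matching several genes and strand were handled is not given in the sources used here. In 1 table, 1 row without name or value was left out.

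Counts were analysed in R 4.3.3 with edgeR 4.0.16 (filterByExpr, minimum count 10 and minimum total 15, TMM, glmQLFit and glmQLFTest, condition being the single term, p adjusted by Benjamini-Hochberg over 11977 genes). The standard error is the absolute log2 FC divided by the root of the F statistic, and log2 ratios used a prior count of 2. The fit was run on counts simulated from these libraries without pairing, which checks the calculation and not the calls made here. Floors of 3 counts and counting intervals leave out all but counting error; lacking molecular identifiers, reads may be PCR copies.

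The 10 genes, the lists and the tests were chosen with earlier results of these data known. Named are the 10 genes, up to 3 DEGs per direction and list with the smallest p, the 3 genes closest to Sgms1, and of each marker list the most counted gene. Others (Ormdl3, Psat1, Phgdh, Fa2h, Sptssa, B4galt5, St3gal5, Sgms2, the S1P genes, and further markers) were named after their values were seen. The DEG of glycosphingolipid breakdown is counted, but its values are not reported here, in the plots either.

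Same-numbered libraries deviated together (r over genes of 0.42, 0.545 and 0.611 after centring on the condition means, other numbers from -0.534 to 0.0856), so the numbers were treated as pairing the libraries, on this evidence alone. Alternatives were RLE normalization, DESeq2 1.42.0, the likelihood ratio test, 2 other filters, the replicate block, each library left out, and, added after seeing the data, both libraries numbered 3 left out.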

Additional observations from a re-analysis of the deposited data

How the results depend on the processing

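Normalization, test, filter and the replicate block changed no call among the 10 genes. Of the other pathway genes 12 and 5 were upregulated and downregulated DEGs with RLE, 13 and 6 with DESeq2, 13 and 7 with the likelihood ratio test, 12 and 4 with no filter beyond 1 count, 10 and 5 with a mean of at least 1 CPM, and 13 and 8 with the replicate block, which called 17.7% of all genes as upregulated and 16.4% as downregulated. Leaving out single libraries did change calls. Upregulated and downregulated DEGs among the 10 genes ranged from 1 to 2 and from 0 to 2, among the other pathway genes from 4 to 11 and from 0 to 6, and among all genes from 469 to 1941 and from 182 to 1772. Without both libraries numbered 3 there were 0 downregulated DEGs among the 10 genes and 2 among the other pathway genes. The log2 FC of Cers2 ranged from -0.29 to 0.10 with single libraries left out, turning positive without LPS replicate 3 (0.10) and without both libraries numbered 3 (0.12). That of Asah1 ranged from -0.56 to 0.00, the latter without LPS replicate 1. The cause was not tested, beyond the fewer libraries of these fits. All 18 DEGs of the other lists kept their direction in every setting that gave a value, and 4 of them (Acsl3, Cert1, Kdsr, Psph) were called in all. The difference in the 3 log2 ratios within libraries kept its sign with a prior count of 0.5, with each library left out and with the replicate block, where it was -2.74 for Ugcg to Sgms1, -1.30 for Cers6 to Cers2 and -0.15 for Sptlc2 to Sptlc1. Acer1 and Fa2h gave no value with a mean of at least 1 CPM.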
